A study of Mus musculus with 18 samples.

Results

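The genes described here are 9 coagulation and fibrinolysis genes of the mouse heart, followed through the first 72 h after a myocardial infarction (MI): Plat, Plau, Plaur, Serpine2, F3, Tfpi, Thbd, Procr and Vwf. They were taken as a named list and matched by Ensembl identifier in the deposited count tables, where 9 of 9 were found among 30583 genes. Poly(A)-selected RNA was sequenced from the left ventricle of 18 male C57BL/6JR mice, 12 weeks old, with 3 mice and 3 libraries in each of 6 groups. In 5 groups the left anterior descending coronary artery was tied, and the myocardium of the infarcted region was taken 72, 24, 6 or 1 h later, or after 10 min. The sham group, labelled 0 h, had the operation with the suture passed and left untied, so ligation and time since surgery cannot be told apart in a comparison with it. All mice of all groups had pentobarbital for surgery and isoflurane before they were killed.

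Clotting in a damaged vessel starts when tissue factor, the protein of F3, meets circulating factor VII, and tissue factor pathway inhibitor, the protein of Tfpi, shuts that step down. Thrombomodulin (Thbd) on the endothelium turns thrombin from a clotting enzyme into an activator of protein C, and the endothelial protein C receptor (Procr) presents protein C to it. Clots are dissolved by plasmin, which the tissue-type and urokinase-type activators (Plat and Plau) release from plasminogen, the urokinase receptor (Plaur) holding its enzyme at the cell surface, and serpins such as protease nexin 1 (Serpine2) block these proteases. Von Willebrand factor (Vwf), stored in endothelial cells and platelets, tethers platelets to exposed collagen.

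Total counts ran from 18.2 to 25.1 M (mega) per library. Levels are given as CPM (counts per M counts, scaled by the TMM method), as group mean ± SD with n = 3. Although the labels name cardiomyocytes, the libraries held markers of many cell types. In sham hearts, the 8 cardiomyocyte markers summed to between 49000 and 53900 CPM, the 10 endothelial markers to between 1450 and 1590 and the 8 fibroblast markers to between 804 and 915. In such bulk tissue, fewer cells of a type and less RNA per cell cannot be told apart. The first library at 6 h and the third at 24 h stood apart from their groups. Their 7 neutrophil markers summed to 751 and 744 CPM, against 269 and 101 in the other 6 h libraries and 173 and 43.0 in the other 24 h libraries. The main results that rest on those libraries are also given without them.

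In each comparison a gene was called when its edgeR p, adjusted over the 16311 genes tested, was under 0.05. All 9 genes were called against sham at some time from 6 h on, and none at 10 min or 1 h. The calls of Vwf and Tfpi against sham were lost with library size scaling. At 10 min 0 of 9 were called, where 0.0736% of all genes were, and at 1 h 0 of 9, where 0.294% were. At both times 0 of 9 also had an unadjusted p under 0.05, and DESeq2 and limma called 0. At 6 h 5 were called, all higher (Plat, Plaur, Thbd, Procr and Vwf), beside 28.4% of all genes called in either direction and 16.3% called higher. At 24 h 6 were called, 4 higher (Plat, Plau, Plaur and Procr) and 2 lower (F3 and Vwf), beside 43.8% of all genes, 23.7% higher and 20.2% lower. At 72 h 8 were called, 5 higher (Serpine2, Plat, Plau, Plaur and Procr) and 3 lower (F3, Thbd and Tfpi), beside 66.4% of all genes, 34.2% higher and 32.2% lower. The F test over all times called 9 of 9, where it called 78.4% of all genes. The median log2 fold change of the 9 genes against sham was 0.51 at 6 h, -0.05 at 24 h and 1.28 at 72 h. Over all genes tested those medians were -0.01, 0.01 and 0.03. The 72 h median of the 9 is the value of Plat, with 5 genes called higher and 3 lower. The 9 genes were chosen with earlier results of these data known, so their counts and medians are descriptions. Without the first library at 6 h and the third at 24 h, 5 genes were called at 6 h beside 24.2% of all genes, 4 at 24 h beside 36.4%, and 8 at 72 h beside 69.7%. The 5 at 6 h were then Plat, Plaur, Thbd and Procr, higher, and F3, lower at -0.45 (adjusted p = 0.0215), while Vwf was no longer called. At 24 h Plat and Vwf were lost. The plot of fold changes sets the 9 genes side by side.

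**Figure D1:**
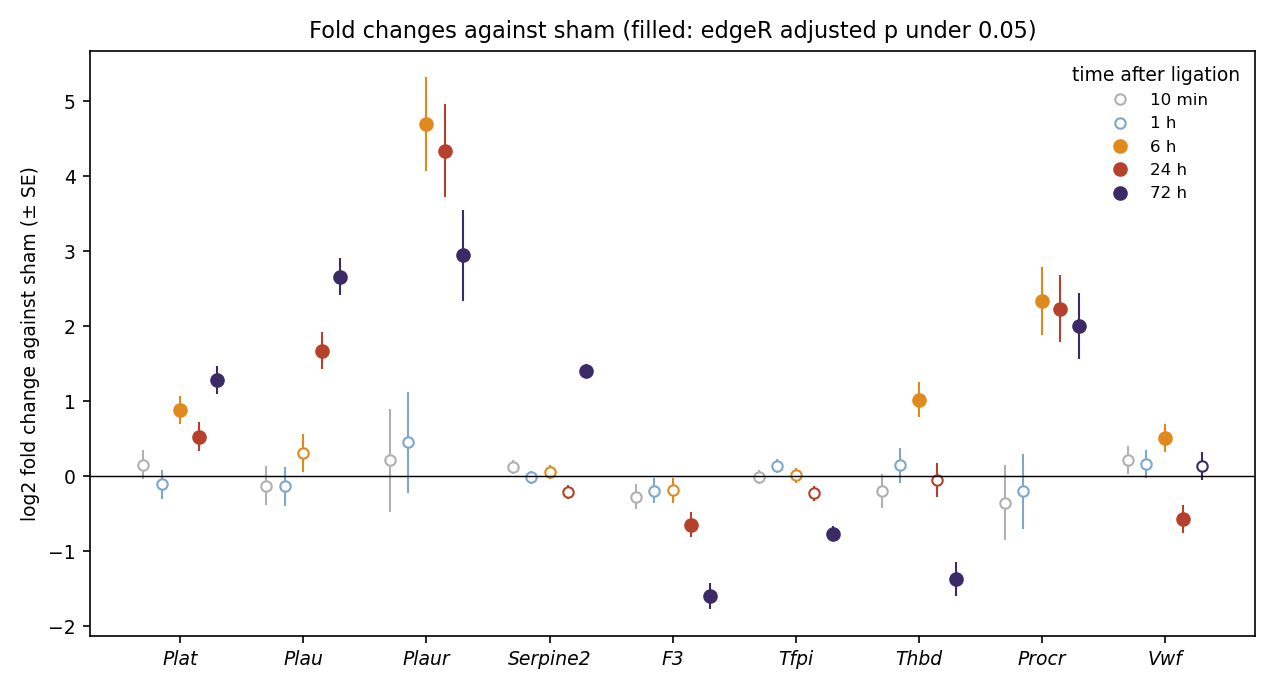
Log2 fold change against sham (vertical axis, edgeR, ± SE) for each of the 9 genes (horizontal axis) at the 5 times after ligation; filled points have an adjusted p under 0.05 and open points do not. All points at 10 min and 1 h are open, Plaur reaches 4.70 at 6 h, and F3 lies lowest at 72 h, at -1.59.

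Each step between consecutive times is given beside its share of all genes called. From 10 min to 1 h 0 of 9 genes were called, with 0 at an unadjusted p under 0.05 and 0 by DESeq2, where 0.307% of all genes were called. From 1 h to 6 h 4 rose (Plat, Plaur, Thbd and Procr) and none fell, beside 24.5% of all genes, 14.5% higher and 10% lower. From 6 h to 24 h 1 rose (Plau) and 3 fell (Serpine2, Thbd and Vwf), beside 27.8%, 14.2% higher and 13.7% lower. From 24 h to 72 h 4 rose (Serpine2, Plat, Plau and Vwf) and 4 fell (Plaur, F3, Thbd and Tfpi), beside 50.5%, 24.4% higher and 26.1% lower. Procr was called in 1 of these steps, from 1 h to 6 h. The Tfpi call from 24 h to 72 h, -0.54 ± 0.10, was lost with library size scaling (-0.14, adjusted p = 0.233) and with limma on FPKM (-0.12, adjusted p = 0.233). The calls of Serpine2 from 6 h to 24 h (-0.27, adjusted p = 0.087) and of Plaur from 24 h to 72 h (-0.36, adjusted p = 0.115) were lost without the first 6 h and the third 24 h library.

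Plaur, Procr and F3 are shown first by their promoters, since Plaur and Procr had the highest fold changes of the list at 6 h and F3 the lowest at 72 h. RefSeq windows on build GRCm38.p6, from 250 bases before to 50 bases after the transcription start, were matched for 5 of the 9 genes (Serpine2, Tfpi, Procr, F3 and Plaur). The 3 windows below are on the plus strand and are printed 5′ to 3′, at chr7:24462233-24462532 (Plaur), chr2:155750967-155751266 (Procr) and chr3:121723287-121723586 (F3). Capitals mark matches, on either strand, to 5 searched motifs: TGANTCA (AP-1), GCGNGGGCG (Egr), GGANTTTCC (NF-kB type), CCNCACCC (Kruppel-like) and the TATA box (TATAAA).
Plaur: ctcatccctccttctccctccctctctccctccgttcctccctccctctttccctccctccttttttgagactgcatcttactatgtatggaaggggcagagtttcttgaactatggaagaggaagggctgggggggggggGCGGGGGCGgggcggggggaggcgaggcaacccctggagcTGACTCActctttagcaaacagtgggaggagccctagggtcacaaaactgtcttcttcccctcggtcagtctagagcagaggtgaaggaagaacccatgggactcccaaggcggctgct
Procr: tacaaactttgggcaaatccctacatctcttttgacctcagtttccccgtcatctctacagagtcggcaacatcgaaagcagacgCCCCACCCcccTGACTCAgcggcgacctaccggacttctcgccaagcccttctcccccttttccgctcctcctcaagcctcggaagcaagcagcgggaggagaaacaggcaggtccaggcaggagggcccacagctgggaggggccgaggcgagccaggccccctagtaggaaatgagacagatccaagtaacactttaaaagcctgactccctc
F3: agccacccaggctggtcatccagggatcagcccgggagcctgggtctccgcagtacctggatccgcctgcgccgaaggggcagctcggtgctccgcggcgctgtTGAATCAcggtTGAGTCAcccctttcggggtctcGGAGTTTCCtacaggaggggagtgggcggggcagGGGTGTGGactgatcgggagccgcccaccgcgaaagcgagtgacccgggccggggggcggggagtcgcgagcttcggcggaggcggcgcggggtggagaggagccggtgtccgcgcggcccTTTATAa

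Each of these windows held the AP-1 letters, which 7.81% of 32817 RefSeq windows of 300 bases also hold. Of the 5 genes with a window, only these 3 held them, and Serpine2 and Tfpi did not. Counted from the start site, the match began at -69 in Plaur, at -154 in Procr, and at -146 and -135 in F3. The Egr letters lay at -109 in Plaur and at -17 in Serpine2 (5.56% of windows). F3 also held the NF-kB type letters at -112 (1.26% of windows), the Kruppel-like letters at -78 (16.57%), also found in Procr at -165, and the TATA letters at 44, on the reverse strand and downstream of the start (13.62%). Of the 2 Tfpi windows 1 held the TATA letters, at -127 on the reverse strand. No searched motifs overlapped in the printed windows. These are matches of letters in fixed windows and show no binding. Plaur, Procr and F3 were picked by their fold changes, so the windows cannot show whether the motifs go with a direction of change.

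Among the plasminogen activators, Plat rose first and Plau later, and by 72 h urokinase had the highest mean of the 9 per kilobase, with libraries that overlapped those of Thbd. Plat (chromosome 8, 22757727 to 22782844, plus strand, 13 merged exons in GENCODE M21 on GRCm38) encodes the tissue-type activator, which endothelial cells release. Its level was 22.7, 19.4 and 22.6 CPM in sham, 26.3, 22.7 and 23.3 at 10 min, and 21.6, 19.6 and 19.1 at 1 h. It was 53.8, 36.3 and 29.9 CPM at 6 h, 24.4, 29.5 and 39.8 at 24 h, and 53.8, 58.8 and 44.7 at 72 h. All libraries from 6 h on lay above all sham libraries, as did those of 10 min by a small margin, without a call there (adjusted p = 0.932). Plat rose by a log2 fold change of 0.89 ± 0.19 (SE) at 6 h (edgeR adjusted p = 0.00227), 0.53 ± 0.19 at 24 h (adjusted p = 0.0298) and 1.28 ± 0.19 at 72 h (adjusted p = 1.17e-05). The 24 h call was lost when any 1 of the sham libraries (0.46 to 0.57), or the third 24 h library (0.32), was left out. In the order of group means, 72 h, 6 h, 24 h and 10 min each overlapped the next, and 10 min and sham did not overlap.

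Plau (chromosome 14, 20836660 to 20843385, plus strand, 11 merged exons) encodes urokinase, which macrophages and fibroblasts secrete. Sham libraries held 5.35, 6.48 and 5.15 CPM, those of 10 min 5.23, 4.45 and 5.97, and those of 1 h 4.68, 5.68 and 5.19. At 6 h the values were 9.17, 7.27 and 4.68 CPM, overlapping sham, and the gene was not called (adjusted p = 0.386). They reached 14.1, 16.7 and 23.5 CPM at 24 h and 26.2, 47.0 and 34.2 at 72 h, each group above every library of the earlier times. Plau rose by 1.68 ± 0.25 (log2, SE) at 24 h (adjusted p = 6.4e-05) and by 2.66 ± 0.25 at 72 h (adjusted p = 5.78e-08). The step from 24 h to 72 h was itself called (0.98 ± 0.23, adjusted p = 0.00157). The 10 macrophage and monocyte markers summed to between 302 and 347 CPM in sham, 706 and 1050 at 24 h, and 3680 and 4770 at 72 h, and their part in the rise of Plau was not tested. Sham, 10 min, 1 h and 6 h could not be ordered, since neighbours among them overlapped. Per kilobase, Plau had ranked 7 of the 9 in sham (2.39 ± 0.30 CPM per kb) and ranked 1 at 72 h (15.1 ± 4.43).

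The balance of these transcripts shifted between 6 h and 24 h. Within a library, the ratio of Plat to Plau counts per kilobase was 1.61, 1.14 and 1.66 in sham and 2.22, 1.90 and 2.42 at 6 h, all above sham. It was 0.654, 0.670 and 0.642 at 24 h and 0.779, 0.475 and 0.496 at 72 h, all below sham. The tissue-type activator thus had the more abundant transcript per kilobase up to 6 h, and urokinase from 24 h on. A ratio within a library is not affected by how libraries are scaled to each other.

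**Figure D2:**
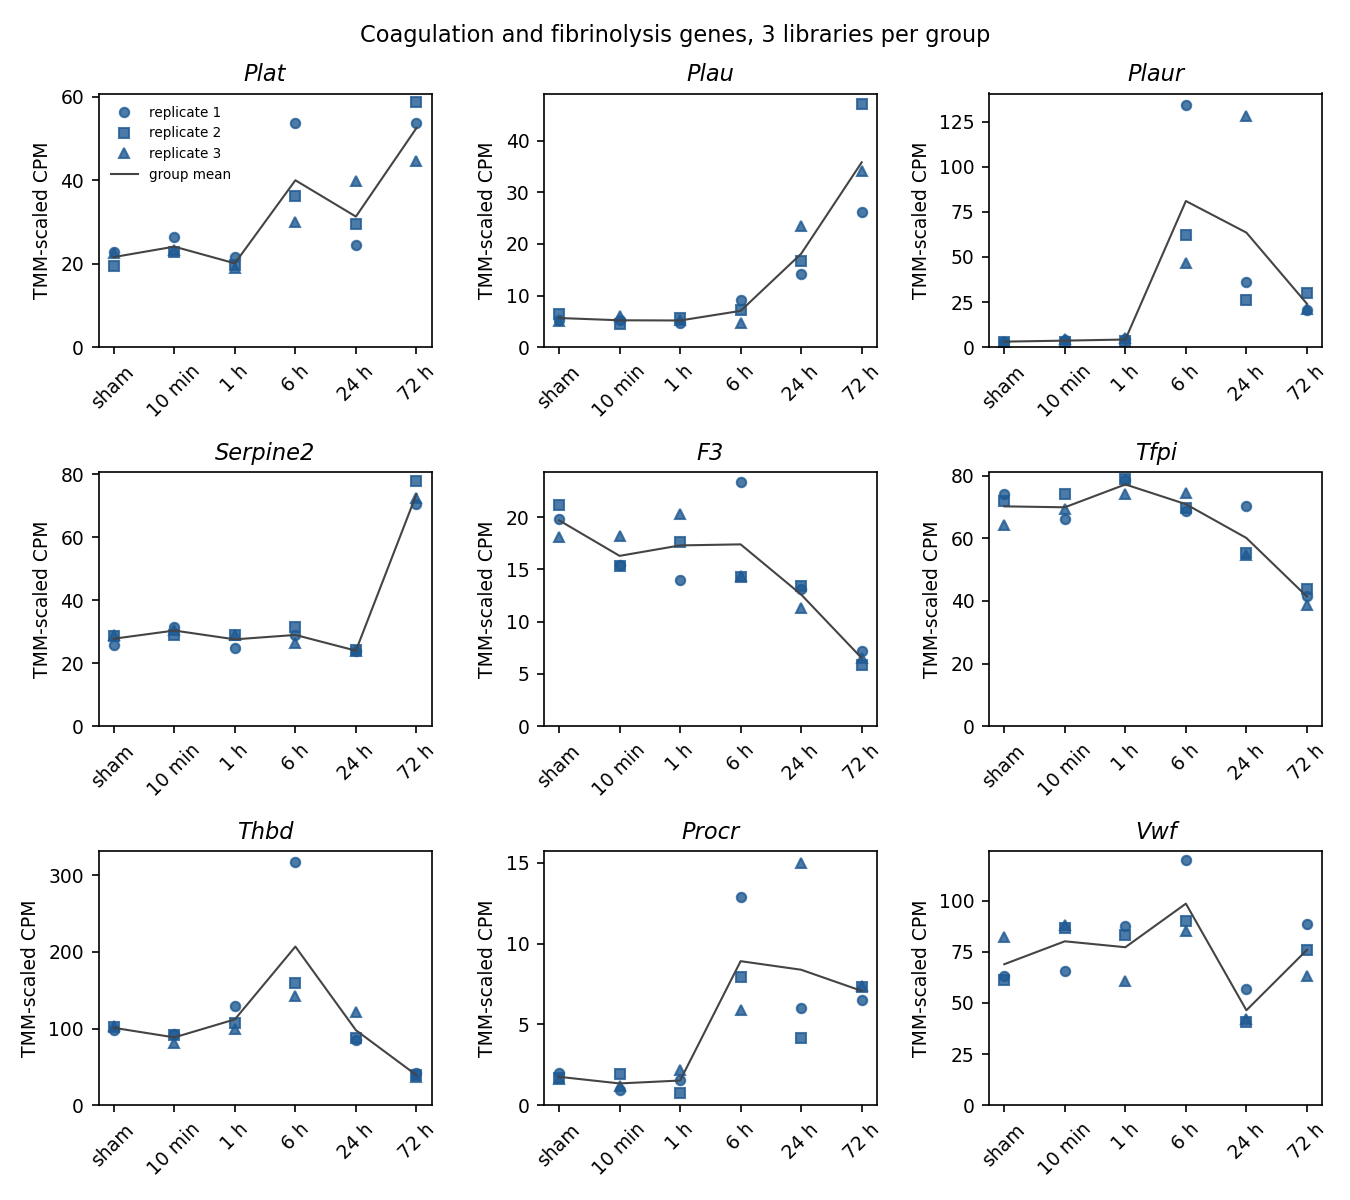
TMM-scaled CPM (vertical axes, from 0) of the 9 genes in sham and at the 5 times after ligation (horizontal axes); points are libraries, with 1 symbol for each replicate number, and lines join the group means. Serpine2 rises at 72 h alone, and for Plaur, Thbd and Procr the first 6 h library, and for Plaur and Procr the third 24 h library, lies far above the others of its group.

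Plaur (chromosome 7, 24462484 to 24475968, plus strand, 6 merged exons), the urokinase receptor that activated myeloid cells carry, moved most of the 9 genes. Sham libraries held 3.03, 3.16 and 3.15 CPM, those of 10 min 3.86, 2.73 and 4.41, and those of 1 h 4.30, 3.37 and 5.13. The 1 h libraries lay above all sham libraries, without a call (adjusted p = 0.999). At 6 h Plaur stood at 134, 62.0 and 46.8 CPM, at 24 h at 36.1, 26.1 and 128, and at 72 h at 20.6, 30.3 and 21.4. Every library from 6 h on was above every library up to 1 h, whereas 6 h, 24 h and 72 h overlapped each other in turn. The log2 fold change against sham was 4.70 ± 0.63 (SE) at 6 h (adjusted p = 0.000161), 4.34 ± 0.62 at 24 h (adjusted p = 0.000145) and 2.95 ± 0.61 at 72 h (adjusted p = 0.000729).

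Within the 6 h and 24 h groups, the level of Plaur went with that of the neutrophil markers, but not with those alone. The first 6 h and the third 24 h library were also highest in their groups for macrophage and monocyte markers (566 and 1050 CPM). The same held for platelet and megakaryocyte markers (70.5 and 104), and these libraries were lowest for cardiomyocyte markers (42800 and 21200). Without the third 24 h library, its 24 h mean was 31.1 CPM in place of 63.5 ± 56.4, and its 24 h fold change was 3.31 ± 0.41 (adjusted p = 6.61e-05). Without the first 6 h library, the 6 h fold change was 4.12 ± 0.58. Its drop from 24 h to 72 h, -1.39 ± 0.51 (adjusted p = 0.0368), was -0.36 without the third 24 h library (adjusted p = 0.418), and the call was also lost without any 1 of the 72 h libraries (adjusted p = 0.104, 0.0507 and 0.103). The 7 neutrophil markers summed to between 3.03 and 4.56 CPM in sham, between 101 and 751 at 6 h, between 43.0 and 744 at 24 h, and between 59.2 and 73.4 at 72 h, and Ly6g was at 0 in all sham libraries. All 7 were called higher at 6 h, 6 at 24 h and 5 at 72 h. Their part in the Plaur result was not tested. The plot of marker sums shows these libraries.

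Receptor and enzyme kept different times. The ratio of Plaur to Plau counts per kilobase was 0.512, 0.441 and 0.554 in sham, 13.2, 7.71 and 9.03 at 6 h, and 2.31, 1.41 and 4.93 at 24 h. At 72 h it was 0.713, 0.583 and 0.566, each still above sham, though the mean was 1.24 times that of sham against 19.9 times at 6 h.

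**Figure D3:**
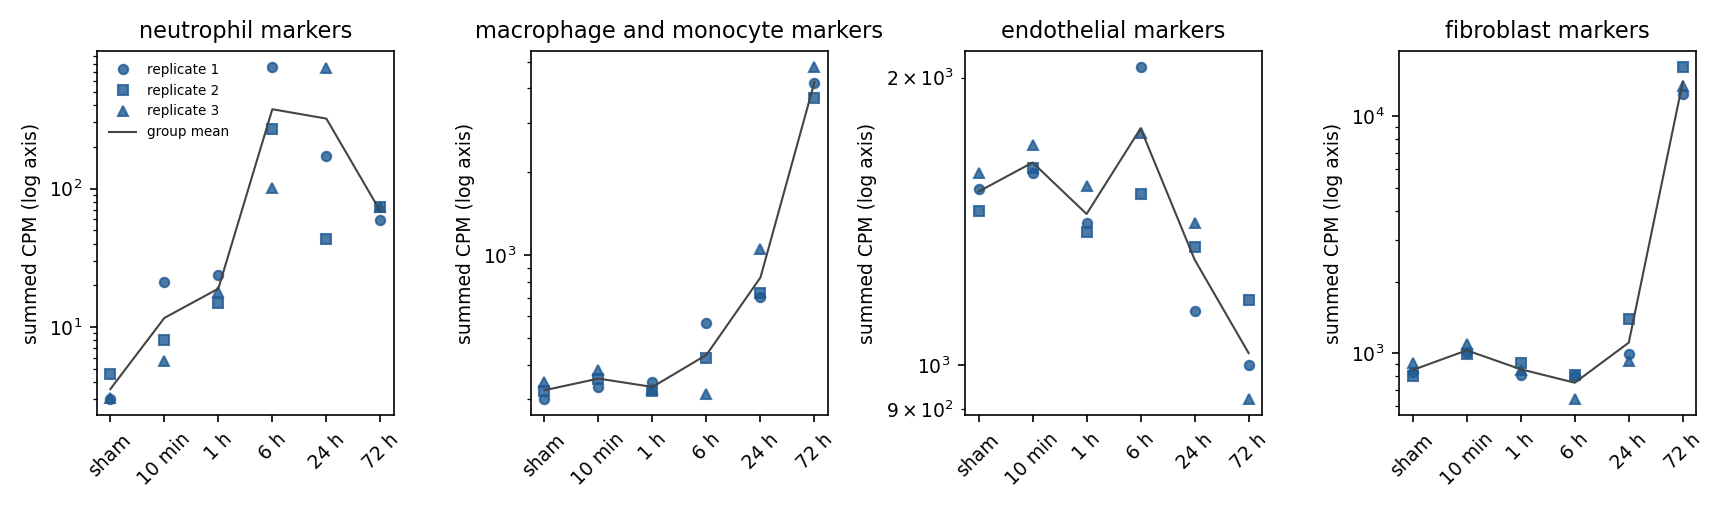
Summed TMM-scaled CPM (vertical axes, log scale) of the neutrophil, macrophage and monocyte, endothelial and fibroblast markers in sham and at the 5 times after ligation (horizontal axes); points are libraries and lines join group means. The first library at 6 h (751) and the third at 24 h (744) stand above the others of their groups for neutrophil markers, while macrophage and fibroblast markers are highest at 72 h.

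Serpine2 (chromosome 1, 79794197 to 79861180, minus strand, 10 merged exons) encodes protease nexin 1, an inhibitor of thrombin, urokinase and the tissue-type activator, and changed late. Its level was 25.9, 28.6 and 28.9 CPM in sham, 31.5, 28.9 and 30.6 at 10 min, and 24.7, 29.1 and 29.0 at 1 h. At 6 h it was 28.9, 31.5 and 26.5 CPM, at 24 h 23.9, 24.3 and 23.9, and at 72 h 70.6, 77.9 and 72.5. The 72 h libraries lay above all others and spread little, and the gene rose by 1.41 ± 0.09 (log2, SE; adjusted p = 3.22e-10). Libraries of 10 min lay just above and those of 24 h below all sham libraries, without a call (adjusted p = 0.858 and 0.0658). The drop from 6 h to 24 h was small, -0.27 ± 0.09 (adjusted p = 0.0305), and depended on the scaling: scaled by library size alone it was 0.03 (adjusted p = 0.824). The call was also lost without the first or the second 6 h library (adjusted p = 0.0572 and 0.129), and without the second or the third 24 h library (adjusted p = 0.0621 and 0.0609). At 72 h the 8 fibroblast markers were also at their highest, between 12400 and 16100 CPM and all 8 called, and their part in the rise of Serpine2 was not tested.

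**Figure D4:**
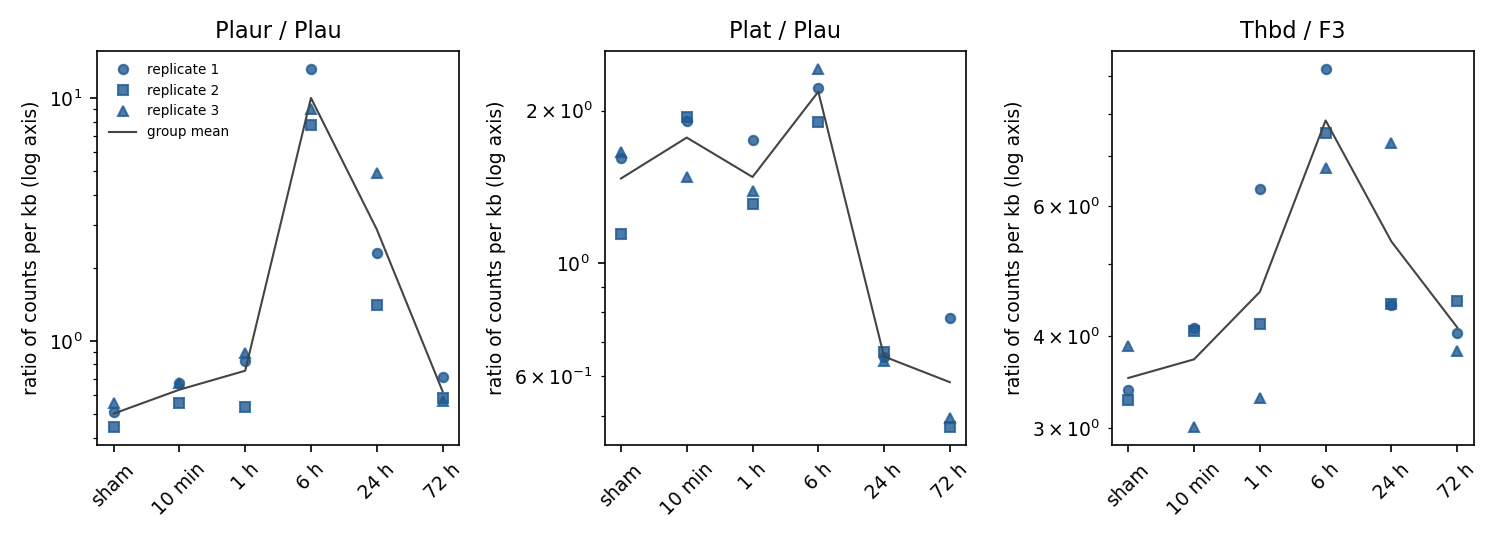
Ratios of counts per kilobase within a library (vertical axes, log scale) for Plaur over Plau, Plat over Plau, and Thbd over F3, in sham and at the 5 times after ligation (horizontal axes); points are libraries and lines join group means. Plaur over Plau is highest at 6 h, on average 19.9 times its sham value, Plat over Plau drops between 6 h and 24 h, and Thbd over F3 is highest at 6 h (7.83).

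The starter of clotting fell. F3 (chromosome 3, 121723537 to 121735048, plus strand, 7 merged exons), which cardiomyocytes and the cells around vessels express, stood at 19.8, 21.2 and 18.1 CPM in sham, 15.4, 15.3 and 18.2 at 10 min, and 14.0, 17.6 and 20.3 at 1 h. At 6 h it was 23.4, 14.3 and 14.4 CPM, at 24 h 13.1, 13.4 and 11.3, and at 72 h 7.16, 5.90 and 6.49. Libraries of 24 h and of 72 h each lay below every library of the earlier times. F3 fell by 0.64 ± 0.17 (log2, SE) at 24 h (adjusted p = 0.0054) and by 1.59 ± 0.17 at 72 h (adjusted p = 2.39e-07), which is 3.02-fold. At 6 h it was not called (adjusted p = 0.449), the first library being the highest of the 18 and the others below all sham libraries. Without that library the 6 h fold change was -0.46 (adjusted p = 0.0391). Sham, 6 h, 1 h and 10 min overlapped their neighbours in the order of means. At 72 h the 8 cardiomyocyte markers were all called lower, with sums between 11700 and 15700 CPM against between 49000 and 53900 in sham, and their part in the F3 result was not tested.

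Tfpi (chromosome 2, 84432855 to 84476775, minus strand, 12 merged exons), the inhibitor of the tissue factor pathway, was called at 72 h alone. It stood at 74.3, 72.0 and 64.2 CPM in sham, 66.1, 74.3 and 69.2 at 10 min, and 78.5, 79.0 and 74.2 at 1 h. At 6 h it was 68.7, 69.8 and 74.4 CPM, at 24 h 70.3, 55.2 and 54.7, and at 72 h 41.5, 43.9 and 38.8. Only the 72 h libraries lay apart from sham. Tfpi fell by 0.76 ± 0.10 (log2, SE) at 72 h (adjusted p = 1.71e-06), relative to the other genes. Scaled by library size alone, the difference was -0.17 (adjusted p = 0.112), so this call rests on the scaling. Within a library, the ratio of Tfpi to F3 counts per kilobase rose above the sham values of 1.74, 1.57 and 1.64 to 2.68, 3.44 and 2.77 at 72 h.

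Both arms of the protein C system were higher at 6 h, and they parted afterwards. Thbd (chromosome 2, 148404466 to 148408188, minus strand), a gene of 1 exon, encodes thrombomodulin and was the most abundant of the 9 per kilobase in sham (27.2 ± 0.71 CPM per kb). Its level was 98.5, 102 and 104 CPM in sham, 93.2, 91.6 and 80.6 at 10 min, and 130, 107 and 99.0 at 1 h. It was 317, 159 and 143 CPM at 6 h, 84.6, 87.2 and 122 at 24 h, and 42.6, 38.8 and 36.5 at 72 h. The 6 h libraries lay above all others of the series and the 72 h libraries below all others, and 24 h overlapped sham (adjusted p = 0.875). Libraries of 10 min lay below all sham libraries without a call (adjusted p = 0.932). Thbd rose by 1.03 ± 0.23 (log2, SE) at 6 h (adjusted p = 0.00385) and fell by 1.37 ± 0.23 at 72 h (adjusted p = 8.36e-05). Without the first 6 h library the rise was 0.58 ± 0.14 (adjusted p = 0.00889), and in a fit to the 6 libraries of that comparison alone the call was lost (adjusted p = 0.0758). In such fits its calls from 1 h to 6 h (0.88 ± 0.23 with all libraries) and from 6 h to 24 h (-1.08 ± 0.23) were lost as well (adjusted p = 0.151 and 0.087). These steps were 0.43 (adjusted p = 0.0489) and -0.63 (adjusted p = 0.00429) without the first 6 h library.

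Procr (chromosome 2, 155751117 to 155755471, plus strand, 3 merged exons), the endothelial protein C receptor, rose and stayed up. Its level was low in sham, at 2.02, 1.66 and 1.60 CPM (40, 32 and 36 counts), in the 10 min libraries, at 0.933, 1.93 and 1.17, and in the 1 h libraries, at 1.59, 0.769 and 2.21. At 6 h it was 12.9, 7.94 and 5.91 CPM, at 24 h 6.00, 4.17 and 15.0, and at 72 h 6.53, 7.30 and 7.41. All libraries from 6 h on lay above all earlier ones, and the 3 late groups overlapped each other. Procr rose by 2.34 ± 0.45 (log2, SE) at 6 h (adjusted p = 0.00133), 2.24 ± 0.45 at 24 h (adjusted p = 0.00098) and 2.01 ± 0.45 at 72 h (adjusted p = 0.000863). Without the first 6 h library its 6 h fold change was 1.98 ± 0.46 (adjusted p = 0.00716). Without the third 24 h library its 24 h mean was 5.08 CPM in place of 8.39 ± 5.79, and its 24 h fold change 1.52 ± 0.35 (adjusted p = 0.00256). The libraries high in Procr at 6 h and 24 h were those high in neutrophil, macrophage and platelet markers. The part of any of those cells was not tested.

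Set against the starter of clotting, the ratio of Thbd to F3 counts per kilobase was 3.38, 3.28 and 3.88 in sham. At 6 h it was 9.20, 7.53 and 6.76, all above sham, at 24 h 4.40, 4.42 and 7.30, also above, and at 72 h 4.04, 4.46 and 3.82, overlapping sham. Thrombomodulin and tissue factor transcripts thus parted at 6 h and by 72 h had both fallen, in a ratio that overlapped that of sham.

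Vwf (chromosome 6, 125546774 to 125686679, plus strand, 56 merged exons) had the least stable pattern. Its level was 63.2, 61.0 and 82.4 CPM in sham, 65.4, 86.5 and 88.2 at 10 min, and 87.6, 83.4 and 60.7 at 1 h. It was 120, 90 and 85.3 CPM at 6 h, 56.7, 40.5 and 42.0 at 24 h, and 88.7, 75.8 and 63.2 at 72 h. The 6 h libraries lay above and the 24 h libraries below all sham libraries, and those of 72 h overlapped sham. Vwf was higher by 0.52 ± 0.19 (log2, SE) at 6 h (adjusted p = 0.0495), and lower at 24 h, at -0.57 ± 0.19 (adjusted p = 0.0216). The 6 h call was lost without the first or the second sham library (0.46 and 0.43) and without the first or the second 6 h library (0.35 and 0.58). The 24 h call was lost without the third sham library (-0.42), and without the second or the third 24 h library (-0.48 and -0.51). Both were also lost with library size scaling (0.40 and -0.39). The drop from 6 h to 24 h was firmer, at -1.09 ± 0.19 (adjusted p = 0.000672), and it was called in all 6 fits with 1 library left out. At 72 h it was not called (adjusted p = 0.525), but with library size scaling it was higher than sham, by 0.72 (adjusted p = 0.00207).

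Thbd, Procr, Tfpi and Vwf are all made by endothelial cells, whose 10 markers summed to between 1510 and 2050 CPM at 6 h, 1140 and 1410 at 24 h, and 923 and 1170 at 72 h, against between 1450 and 1590 in sham. Of the 10, 3 were called higher and 2 lower at 6 h, 1 higher and 4 lower at 24 h, and 1 higher and 8 lower at 72 h. Divided by that sum within each library (per 100 endothelial marker counts per kilobase), the genes did not move together. Thbd was 8.36, 8.92 and 8.37 in sham, 17.5, 12.3 and 8.96 at 6 h, and 5.02, 3.96 and 4.55 at 72 h, above sham at 6 h, in 1 library barely so, and below it at 72 h. Procr went from 0.314, 0.265 and 0.237 in sham to 1.41, 1.37 and 1.69 at 72 h, all above sham. Vwf, at 1.24, 1.23 and 1.55 in sham, was 2.42, 1.79 and 1.82 at 72 h, all above sham. Tfpi went from 4.30, 4.28 and 3.54 to 3.33, 3.06 and 3.29, all below sham by a small margin. At 24 h Procr was above sham in all libraries, and Thbd, Vwf and Tfpi overlapped sham. No test was made on these ratios, and some of these genes are also made by other cells. Since the markers in the sum moved in both directions, the ratios are not levels per endothelial cell.

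**Figure D5:**
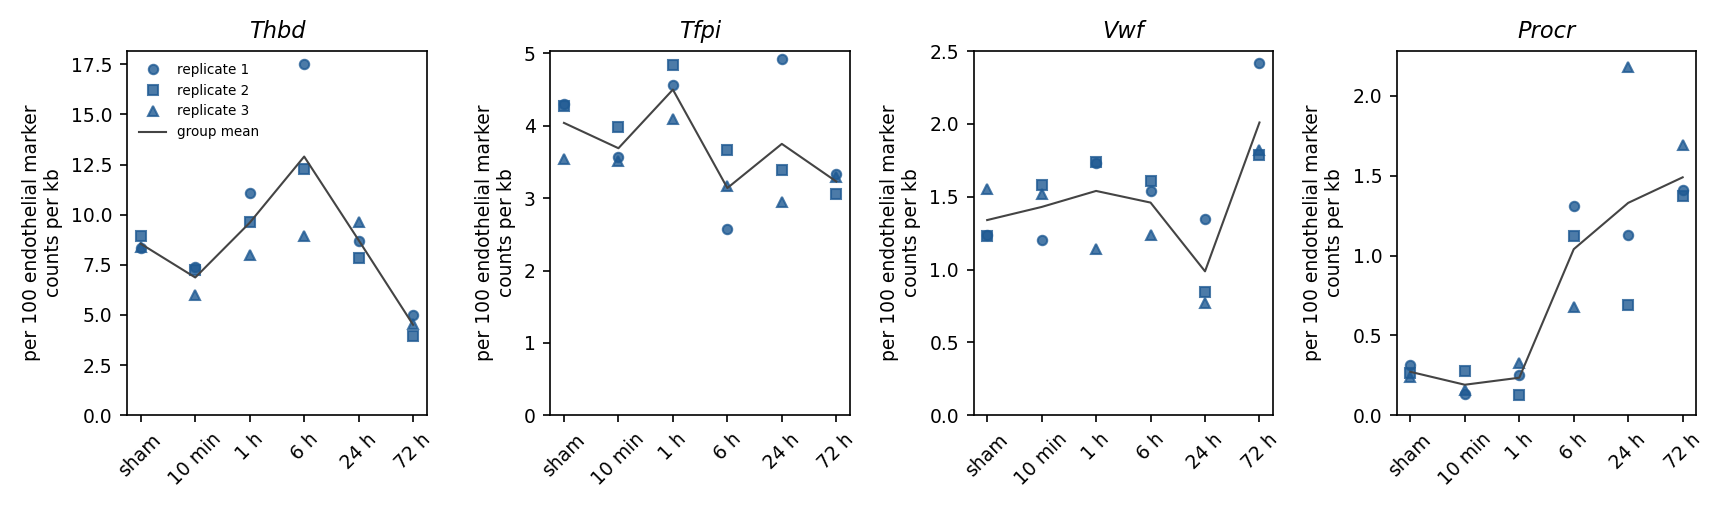
Counts per kilobase of Thbd, Tfpi, Vwf and Procr per 100 counts per kilobase of 10 summed endothelial markers in the same library (vertical axes, from 0), in sham and at the 5 times after ligation (horizontal axes); points are libraries and lines join group means. Thbd ends at 4.51 on average against 8.55 in sham, while Procr ends at 1.49 against 0.272.

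Ordered by level per kilobase, the 9 genes changed places. In sham the order began with Thbd, Tfpi (12.8 ± 0.97 CPM per kb) and F3 (7.79 ± 0.61), and ended with Plaur (1.19 ± 0.03) and Procr (0.866 ± 0.113). At 6 h Plaur was second to Thbd (31.0 ± 17.9 against 55.5 ± 25.8). At 72 h Plau led, followed by Thbd (10.6 ± 0.82), Plaur (9.22 ± 2.05) and Serpine2 (8.89 ± 0.46), and F3 was last (2.58 ± 0.25).

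Of 49 other genes of the system in 5 lists, 29 were tested and 16 had counts too low. The other 4 (F2, F13b, Kng1 and Serpina5) were not matched by symbol in the deposited counts. Those lists were chosen with results of these data known, so their counts are descriptions. The shares of all genes given above are the background for them. Of 5 clotting factors tested, 3 were called higher and 0 lower at each of 6 h, 24 h and 72 h. Without the first 6 h and the third 24 h library it was again 3 at 6 h and at 24 h, and 4 at 72 h, but at 6 h F5 was lost and F7 called, both named here after their values were seen. The protein of F7 is the partner of tissue factor, and the transcript was near the counting floor in sham (3, 2 and 4 counts). It reached 3.58, 3.39 and 7.73 CPM at 24 h and 8.92, 11.3 and 9.51 at 72 h (adjusted p = 3.07e-07 and 1.04e-09). F10, whose protein the pair activates, had 2, 0 and 4 counts in sham and stood at 5.12, 3.30 and 1.54 CPM at 6 h, 14.6, 6.15 and 65.0 at 24 h, and 6.62, 9.86 and 6.39 at 72 h. Its 24 h mean of 28.6 ± 31.8 was 10.4 without the third library, the one high in neutrophil, macrophage and platelet markers. Transcripts of both factors thus rose while F3 fell.

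Among 5 further anticoagulant genes tested, 0 were called lower than sham from 6 h on, and 3 were called higher at 6 h, 2 at 24 h and 3 at 72 h. Tfpi and Thbd, called lower at 72 h, and Procr, called higher, are not among these 5. Pros1, which encodes protein S, the cofactor of activated protein C, had 28.5 ± 1.26 CPM in sham, 41.8 ± 3.15 at 6 h and 58.3 ± 5.76 at 72 h (log2 fold change 1.03 ± 0.10, adjusted p = 4.82e-08). Tfpi2, a related inhibitor of proteases such as plasmin, went from 1.23 ± 0.12 CPM to 7.68 ± 0.41 at 72 h (2.64 ± 0.38, adjusted p = 9.1e-06), the opposite direction to Tfpi. At 24 h its mean was 3.86 ± 2.55 CPM, and 2.39 without the third library.

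Of 7 further fibrinolysis genes tested, 4 were called higher and 1 lower at 6 h, 5 higher and 0 lower at 24 h, and 5 higher and 0 lower at 72 h. Lrp1, the receptor that clears complexes of activators with their inhibitors, had 215 ± 9.19 CPM in sham, 322 ± 46.5 at 24 h and 709 ± 127 at 72 h (log2 fold change 1.72 ± 0.13, adjusted p = 2.69e-09). Anxa2, whose protein binds plasminogen and the tissue-type activator at the cell surface, had 68.0 ± 3.47 CPM in sham, 142 ± 40.8 at 6 h, 316 ± 125 at 24 h and 439 ± 31.3 at 72 h (2.69 ± 0.23, adjusted p = 4.17e-08).

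Of 3 thrombin receptor genes tested, 0 were called higher and 1 lower at 6 h, 1 higher at 24 h and 2 higher at 72 h. F2r, the main receptor that thrombin cleaves on mesenchymal and endothelial cells, went from 36.2 ± 4.01 CPM in sham to 69.2 ± 9.23 at 72 h (log2 fold change 0.94 ± 0.16, adjusted p = 3.83e-05). Of 9 platelet genes tested, 6 were called higher and 0 lower at 6 h, and 5 higher and 1 lower at 24 h and again at 72 h. Without the first 6 h and the third 24 h library, 3 were called higher at 6 h (Itgb3, Ppbp and Selp) and 5 higher and 0 lower at 24 h. Gp9, for a platelet adhesion receptor subunit, had 3.69, 0.383 and 0.905 CPM at 6 h, and Gp5, for another, 1.49, 0.143 and 0.106. These genes are named after their values were seen. Pf4, the platelet factor 4 gene, which macrophages also express, went from 15.3 ± 1.67 CPM to 135 ± 5.40 at 72 h (3.15 ± 0.27, adjusted p = 8.41e-08). At 72 h all 10 macrophage and monocyte markers were called higher, and their part in the rise of Pf4 was not tested. Selp, the P-selectin gene of platelets and endothelium, had 0, 4 and 7 counts in sham and stood at 28.0, 18.7 and 8.78 CPM at 6 h, 5.35, 1.66 and 13 at 24 h, and 4.63, 4.59 and 3.08 at 72 h (adjusted p at 6 h = 7.85e-05).

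For each of the 9 genes, the closest profiles over the 18 libraries were sought among 11594 genes, as Pearson's r of log2 CPM. The libraries of a group share a treatment, so these values describe profiles only. Serpine2 was closest to Sfrp1 (r = 0.981) and Apoe (0.972), Plau to Ssr1 (0.989) and Serpinb1a (0.988), and Plat to Ugdh (0.968) and Il1r1 (0.964). Plaur was closest to Slc3a2 and Sbno2 (0.982 each), Procr to Il17ra (0.970) and Inhba (0.960), and Thbd to Kdm6b (0.981) and Plxna2 (0.974). F3 was closest to Abcb4 (0.968) and Casz1 (0.961), and Tfpi was close to Hadha (0.978), a gene of fatty acid oxidation. For Vwf, C1qtnf1 was among the closest, at 0.872.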

How the data were processed

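Counts per gene and FPKM values were deposited by the authors for each of the 18 libraries. Per the submitters' processing notes, reads were handled with cutadapt 1.18, HISAT2 2.1.0 and featureCounts on build mm10; strand use is not given in the sources used here. The deposited FPKM values are the authors' counts scaled by gene length and library total, and the columns of 6 h replicates 2 and 3 each hold the other's counts; FPKM entered 1 alternative and the lengths behind it the levels per kilobase.

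The deposited counts were tested with edgeR 4.0.16 in R 4.3.3: filterByExpr left 16311 of 30583 genes, libraries were scaled by TMM, and all 18 libraries entered 1 quasi-likelihood model (group means, robust, two-sided). P-values were adjusted by the Benjamini-Hochberg method over all genes tested. The standard error is the log2 fold change divided by the square root of F. Symbols and coordinates came from GENCODE M21 on GRCm38, matched by gene ID (30489 IDs matched, 94 did not). The code was tested on simulated counts.

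The 9 genes, the 5 wider lists, the 9 marker lists, the motifs and the tests were chosen with earlier results of these data known. Named from each wider list were the 2 genes lowest in adjusted p over all times, among those with a mean of at least 50 counts (F2r alone qualified among the thrombin receptors). The closest profiles were the 2 highest r (prior count 2) among genes tested with a mean of at least 50 counts, and 1 each for Tfpi and Vwf is not reported here. The protocols mention no molecular identifiers, and PCR copies can be among the reads. Alternatives were DESeq2 1.42.0, limma 3.58.1 on log2(FPKM + 1), RLE and library size scaling, other filters, a replicate block, fits to the 6 libraries compared, and leaving out each library in turn. Leaving out the first 6 h and the third 24 h library together was chosen after seeing the data.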

Additional observations from a re-analysis of the deposited data

How the results depend on the processing

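Of 525 refitted values for the 35 calls named above, 477 kept their direction and their side of the threshold, 46 kept their direction but were no longer called, and 2 reversed. Those 2 are Serpine2 from 6 h to 24 h, at 0.03 both with library size scaling and with limma on log2(FPKM + 1). The number of the 9 genes called from 6 h to 24 h was 2 when only the 6 libraries compared were fitted, beside 6.35% of all genes, against 4 beside 27.8%; no other count of called genes moved by more than 1.5 times. Leaving out 1 library gave counts of 4 to 5 at 6 h (18% to 28.5% of all genes), 4 to 7 at 24 h (33.6% to 46.2%), 8 at 72 h (61.4% to 63.2%), and 3 to 6 from 6 h to 24 h (22.3% to 30.8%). The rise of Plaur at 24 h ranged from 3.31 to 4.72 over those fits, that of Procr at 24 h from 1.52 to 2.57, and that of Thbd at 6 h from 0.58 to 1.23. With library size scaling, the 6 h, 24 h and 72 h contrasts with sham had medians over all genes of -0.12, 0.20 and 0.61, and 40.6%, 75.5% and 79.9% of calls were increases, against 57.2%, 54% and 51.4% with TMM. With that scaling, and with limma on FPKM, Tfpi was not called over all times (adjusted p = 0.134 and 0.127). The TMM scaling factors were 0.916, 0.907 and 0.959 in sham and 1.36, 1.39 and 1.43 at 72 h. Library size scaling leaves them out, and so does FPKM, which is scaled by library total. Why the factors differed between groups was not tested, nor was the cause of other differences between settings.

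For 45 pairs of libraries with the same replicate number in different groups, deviations correlated at a median of 0.04 (range -0.26 to 0.25). For 90 pairs with other numbers the median was -0.01 (range -0.35 to 0.45). Of 18 libraries, 9 correlated best with their own number. These values cannot decide whether the numbers pair the mice, and the main model used no pairing. With a replicate block 4 genes were called at 6 h (27.8% of all genes), 6 at 24 h (43.5%) and 8 at 72 h (66.1%); Vwf at 6 h (adjusted p = 0.0598) and Plaur from 24 h to 72 h (adjusted p = 0.0795) were no longer called. Having 3 mice a group and the low counts of Procr and F7 in sham limit how small a change can be seen.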

Other observations

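Markers of other cell types gave a separate picture of what the sampled tissue held. The 5 red blood cell markers summed to between 534 and 794 CPM in sham, 694 and 1450 at 6 h, 414 and 845 at 24 h, and 228 and 345 at 72 h, where all 5 were called lower (edgeR). At 6 h 1 of the 5 was called higher. The 6 platelet and megakaryocyte markers, most of whose sum is Pf4, went from between 18.4 and 19.9 CPM in sham to between 141 and 156 at 72 h, where 3 of the 5 tested were called higher. The 6 smooth muscle and pericyte markers summed to between 929 and 991 CPM in sham, 511 and 618 at 24 h, and 712 and 872 at 72 h. At 72 h 3 of those were called higher and 2 lower. The 5 mesothelial markers summed to between 11.6 and 20.7 CPM in sham and to 57.8, 17.5 and 20.4 at 72 h, where 3 were called higher. Only the first 72 h library lay above the sham range.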
